A study of Mus musculus with 8 samples.

Results

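Among the genomic stretches called in OCT4 CUT&RUN of mouse embryonic stem cells, 264 of 15578 (1.69%) had a peak in both bisulfite libraries and in no other library. These members were chosen by the deposited peak calls themselves. Entries of the 6 peak lists that overlapped by at least 1 bp were merged into stretches on chromosomes 1 to 19 and X, bins of 100 kb with 10 or more summits in a library were left out, and a stretch was kept if both bisulfite lists and none of the other 4 lists had an entry there. Their presence in one preparation, their fold enrichment and their q-values in the bisulfite lists were therefore selected on, and are given as a description with no test. CUT&RUN releases DNA next to a bound protein with a nuclease tethered by an antibody. In this study the DNA released with an antibody to OCT4 from male E14 embryonic stem cells (strain label C57BL/6J), grown without feeders in N2B27+2i medium, went into 3 preparations with 2 libraries each. The conventional preparation does not record cytosine modification, hmC-Seal pulls down DNA with 5-hydroxymethylcytosine, and of the bisulfite libraries only reads classed as methylated were used for peak calling. IgG served as the antibody control in a conventional and in a bisulfite library. The cells carried no labelled genetic change or treatment. The sources used here describe an aggregated sample with 2 replicates, and nothing says that the replicates came from separate cultures, so p-values measure only the spread between these samples, which may be technical. The lists give no read totals.

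OCT4, encoded by Pou5f1, is a POU-domain transcription factor required for pluripotency. It binds an octamer-like sequence, often beside SOX2, at enhancers that lie away from gene starts. Cytosine methylation at CpG dinucleotides is laid down by DNA methyltransferases, and TET enzymes oxidise it to 5-hydroxymethylcytosine. Bisulfite treatment leaves both marks unconverted, so that the bisulfite reads called methylated can carry either of them. A member is thus a place where the bisulfite lists alone passed the peak caller's threshold, not a place shown to lack hydroxymethylation.

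The members themselves lie outside the sequences used here, since none overlapped a 300-base promoter window of the RefSeq table (GRCm38.p6), which runs from before to just after a gene start. The windows of the coding genes nearest to a member are shown instead, and they differ in CpG content. Their CpG counts do not describe the members, which lie outside them. Of the 3 members within 1 kb of a coding gene start, those at Ace3 and Slc16a3, but not Rac2, were matched to a window by symbol. Both windows are on the plus strand of GRCm38, at chr11:105994399-105994698 for Ace3 and chr11:120948817-120949116 for Slc16a3, with each CpG in capitals.
Ace3: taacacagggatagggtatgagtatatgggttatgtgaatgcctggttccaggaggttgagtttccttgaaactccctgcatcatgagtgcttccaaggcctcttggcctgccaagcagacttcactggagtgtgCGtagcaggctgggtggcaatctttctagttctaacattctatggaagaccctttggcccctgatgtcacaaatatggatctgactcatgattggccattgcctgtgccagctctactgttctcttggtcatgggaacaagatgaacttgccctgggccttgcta
Slc16a3: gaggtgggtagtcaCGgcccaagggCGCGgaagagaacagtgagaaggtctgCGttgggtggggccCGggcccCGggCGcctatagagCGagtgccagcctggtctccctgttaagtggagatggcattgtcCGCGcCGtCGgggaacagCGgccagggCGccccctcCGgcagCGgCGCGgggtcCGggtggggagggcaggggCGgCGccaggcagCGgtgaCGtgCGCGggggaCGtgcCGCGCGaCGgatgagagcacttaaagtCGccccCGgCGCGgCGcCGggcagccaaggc
The Ace3 window holds 1 CpG and the Slc16a3 window 36, against a median of 7 (quartiles 3 and 20) over 32851 windows. The letters ATGCAAAT, the octamer, were searched on both strands and occurred in neither window, as did ATGCTAAT. In all windows they occurred in 1.74% and 0.919%. The letters GGGCGG occurred in the Slc16a3 window and in 35.7% of all windows.

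Members near gene starts ranged from below to above the median fold enrichment of all members. Near Ace3, a paralogue of the angiotensin-converting enzyme gene, the member chr11:105994217-105994342 lay 369 bp before the start used for the printed window. It lay 308 bp from the nearest start of the gene table. Its fold enrichment over the local IgG background was 4.97 in bisulfite replicate 1 and 4.06 in replicate 2, on 18 and 10 fragments. Its −log10 q was 3.82 and 1.56, and the summits of both replicates lay 87 bp apart, so the calls hardly mark the same place. Near Slc16a3, which encodes a lactate transporter, the member chr11:120947893-120948032 lay 1104 bp before the start used for the printed window and 521 bp from the nearest start of the gene table. Its fold enrichment was 4.36 and 4.77, on 10 and 12 fragments. Near Rac2, a small GTPase gene of blood cells, the member chr15:78573477-78573574 lay 743 bp from the start, with a fold enrichment of 8.64 and 7.16 on 17 and 15 fragments. Starts were used for the 35541 of 49554 genes with a known strand, since a gene span alone does not tell which end is the start. Among these starts of any gene type, 5 of the 264 members (1.89%, 95% Wilson interval 0.812% to 4.36%) lay within 1 kb of one. The other 2, named after their values were seen, lay 71 bp from a start on X, at chrX:8981693-8981803 near Gm14457 and Fthl17d, and 543 bp from a start in a cluster of 5S ribosomal RNA genes at chr8:123604467-123604578. Across all 15578 stretches the share within 1 kb of a start was 2.98%, inside that interval. With either end of the 14013 genes without a strand also taken as a start, the shares were 3.41% of members and 4.35% of all stretches.

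The bisulfite lists named 3634 stretches between them, and 983 of these (27.1%) had an entry of both replicates. The 264 members are 7.26% of the 3634 stretches and 26.9% of the 983. Of the 983, 717 also had an entry of an hmC-Seal library, 658 of replicate 1 and 439 of replicate 2. A conventional entry was present at 176 of the 983, and only 2 of these lacked an hmC-Seal entry. Single bisulfite lists held far more stretches of their own, with 1291 in replicate 1 and 540 in replicate 2. Replicate 1 of hmC-Seal alone had 1710 stretches and replicate 2 alone 9721. The hmC-Seal lists were unlike. Replicate 2 had an estimated median of 5 fragments at a summit and a median −log10 q of 2.66, against 18 and 8.10 in replicate 1. The number of members rests in part on hmC-Seal replicate 1, without which it rose from 264 to 495. Without hmC-Seal replicate 2, the longer list, it was 323. Leaving out conventional replicate 1 or 2 gave 265 or 264. The conventional lists held only 179 and 193 stretches, beside 2675 and 1942 in the bisulfite and 3472 and 10988 in the hmC-Seal lists. Absence from the conventional lists therefore excluded few stretches.

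**Figure D1:**
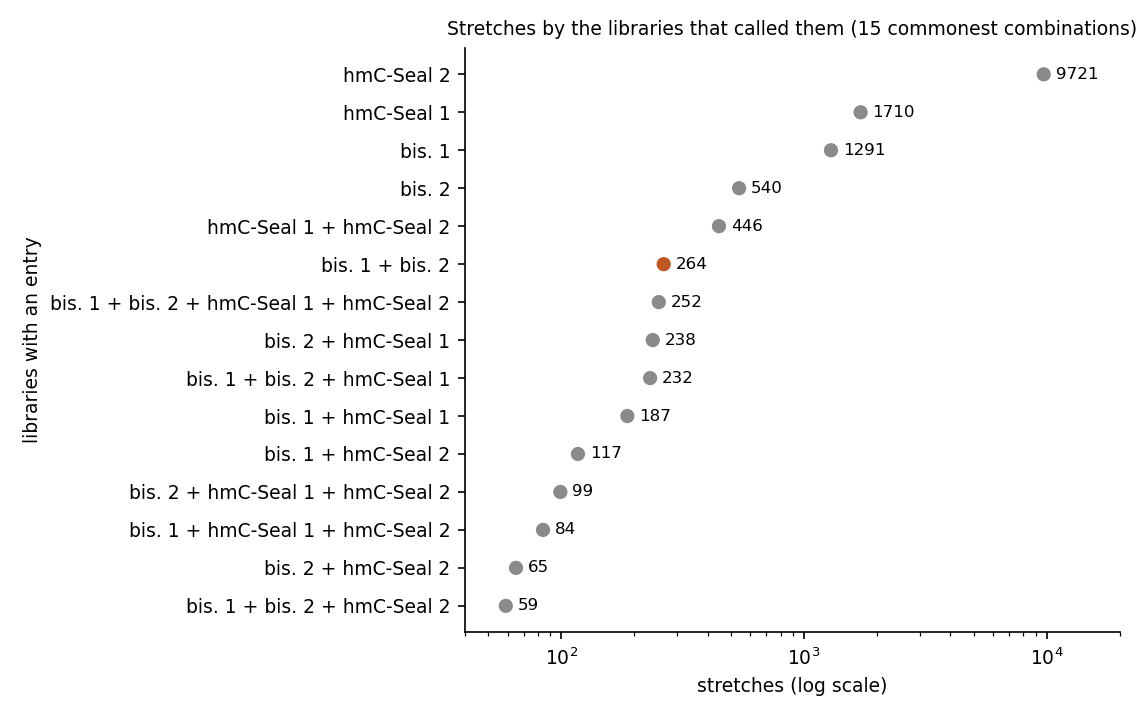
Number of stretches (x axis, log scale) for each of the 15 commonest combinations of libraries with an entry (y axis; bis., bisulfite). The orange point marks the 264 stretches of both bisulfite libraries only, and grey points mark the other combinations, led by the 9721 stretches of hmC-Seal replicate 2 alone.

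The limits of the rule are the gap to other preparations, the calling threshold and the summits in a bin. The nearest entry of another preparation was a median of 73512 bp away. It lay within 1 kb of 3 members and within 5 kb of 14 (5.30%). The closest were chr4:35662040-35662154, chr1:56693833-56693932 and chr16:83813273-83813385, at 211, 258 and 584 bp from an entry of hmC-Seal replicate 2, with a fold enrichment of 7.69 and 8.46, 7.84 and 8.32, and 10.1 and 9.77 in bisulfite replicates 1 and 2. Just outside the rule, a stretch at chr1:61095654-61095887 was lost to a 24 bp overlap with an hmC-Seal replicate 1 entry. Its fold enrichment was 3.68 and 4.36 in the bisulfite replicates and 5.36 in the hmC-Seal library. The next were chr8:25826975-25827123, with an overlap of 51 bp and bisulfite folds of 4.75 and 5.85, and chr2:108394230-108394392, with 53 bp and folds of 5.74 and 7.97. The lowest −log10 q of a member was 1.34 in replicate 1 and 1.38 in replicate 2. It was under 3 in a library at 58 members (22.0%), and at least 5 in both at 147 (55.7%). The lower quartile of −log10 q was 5.04 in replicate 1 and 3.59 in replicate 2, beside 4.16 and 3.66 over all stretches of each list. No bin that held a member had more than 4 summits in a library, while the fullest bin that was kept had 9 and the emptiest that was left out had 11.

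Most members were single peaks whose summits lay within a few bases of each other in both replicates. Their width had a median of 105 bp (range 89 to 258), against 100 bp for all stretches and 96 bp for the stretches of each bisulfite list alone. It was 178 bp for stretches of both bisulfite libraries shared with hmC-Seal but not with a conventional library, and 250 bp for those shared with a conventional library. A stretch merged from more entries tends to be wider, so the widths are not compared further. In 259 members each replicate had 1 summit. The summits of both replicates were a median of 5 bp apart, within 10 bp of each other in 192 members (72.7%) and over 50 bp apart in 13. The widest members were chr4:102235265-102235522 in Pde4b, which encodes a cyclic AMP phosphodiesterase, chr7:103330842-103331078 near the olfactory receptor gene Olfr598, and chr9:9442008-9442219, away from genes, at 258, 237 and 212 bp.

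Fold enrichment had a median of 6.24 in replicate 1 (quartiles 4.83 and 8.02) and 5.74 in replicate 2 (quartiles 4.36 and 7.26). The median −log10 q was 8.17 and 6.80. These values lay between those of stretches in a single bisulfite list, with median folds of 5.45 in replicate 1 and 5.57 in replicate 2, and those of both bisulfite lists shared with hmC-Seal but no conventional library, at 7.22 and 7.19. Stretches shared with a conventional library reached 9.11 and 9.29. Fold enrichment was higher in replicate 1 at 163 members and lower at 101, and the log2 ratio of the replicates had a median of 0.10 (range −1.13 to 1.96). In the lists 1 fragment counted as 0.773 in replicate 1 and 0.711 in replicate 2, and over all stretches of each list the median fold was 6.00 and 6.28. The part of this scaling in the folds of the members was not tested. At 227 members (86.0%) the replicates differed by less than 1.5-fold. Across members, log2 fold enrichment correlated between replicates with a Pearson r of 0.689 and a Spearman rho of 0.660 (n = 264 regions). The points share an IgG control and were all selected on calls in both lists, so this is a description. Of the 7 members that differed more than 2-fold, the largest gap was at Gabrr1, a GABA receptor gene, where chr4:33134177-33134267 stood at 11.8-fold in replicate 1 but 3.05-fold in replicate 2. It was singled out after its values were seen.

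By the lower of both replicates, the first was chr11:100538419-100538550 near the serine transfer RNA gene n-TSgga1, at 14 and 12.9 on 30 fragments in each replicate. The second, chr12:84415609-84415730 inside Bbof1, a gene of motile cilia, had 16.7 and 12 on 34 and 26 fragments. At the other end, chr15:24471498-24471598 had 2.44 and 2.28 although it rested on 46 and 53 fragments. These members were also singled out after their values were seen, and the IgG background was 14 and 16 fragments at the last of them and at the genome-wide level at Bbof1.

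The numbers of fragments come from the deposited values. MACS 2 forms the fold enrichment and the p-value of a summit from the pileup and a local background, and both could be solved for. In the fold, 1 is added to the scaled pileup and to the background, so it is not the plain ratio of OCT4 to IgG fragments. This gave the OCT4 fragments of 259 members in replicate 1 and 263 in replicate 2, as estimates. A member's summit rested on a median of 22 fragments in replicate 1 and 23 in replicate 2, with a range from 9 to 352 and from 9 to 331. The background is the largest of the genome-wide level, here 0.637 and 0.631 in replicates 1 and 2, a local window, and the IgG fragments at the summit itself. At 194 members of each replicate it was a whole number of IgG fragments. Where both lists had a summit at the same base and both backgrounds were whole, the IgG number was equal in 34 of 34 cases (whole within 0.001). Both lists can only draw on the 1 bisulfite or the 1 conventional IgG library, so the background at a member is not replicated. At 183 members both backgrounds were whole, and at 115 of these (62.8%) they were equal, over summits that need not lie at the same base.

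**Figure D2:**
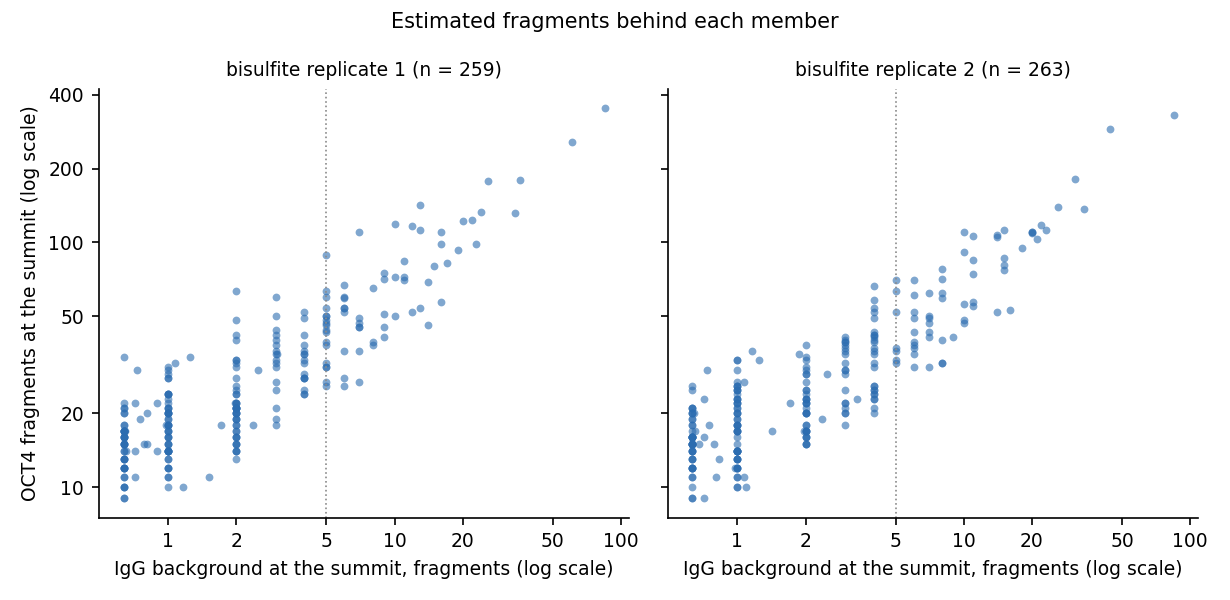
OCT4 fragments at the summit (y axis, log scale) against the IgG background at the summit in fragments (x axis, log scale) for members in bisulfite replicate 1 (left, n = 259) and replicate 2 (right, n = 263), 1 point per member. The dotted line marks 5 IgG fragments, and the members at the top right reach 352 and 331 OCT4 fragments over 85 IgG fragments.

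IgG fragments were more frequent at members than over all stretches of the bisulfite lists. The IgG background was 5 fragments or more at 70 of 259 members in replicate 1 (27.0%, 95% Wilson interval 22.0% to 32.7%) and at 62 of 263 in replicate 2 (23.6%, 18.8% to 29.1%). Over all stretches it was 18.4% (17.0% to 19.9%) in replicate 1 and 8.68% (7.5% to 10.0%) in replicate 2. At stretches of both bisulfite lists shared with hmC-Seal but no conventional library it was 8.08% (6.06% to 10.7%) in replicate 1 and 8.11% (6.08% to 10.8%) in replicate 2. At those shared with a conventional library it was 6.51% and 5.71%. Single-library stretches were split, with 24.4% in bisulfite replicate 1 and 5.43% in bisulfite replicate 2. The genome-wide background was found at 16.6% and 17.1% of members, at 24.6% and 25.7% of all stretches, and at 32.5% and 31.3% of those shared with hmC-Seal only. The stretches of a single bisulfite list were nearer to the members, at 19.3% in replicate 1 and 21.2% in replicate 2. The intervals cover counting error only, regions are not independent replicates, and a call depends on the background, so no test was made. The part of the IgG background in the calls of the members was not tested.

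**Figure D3:**
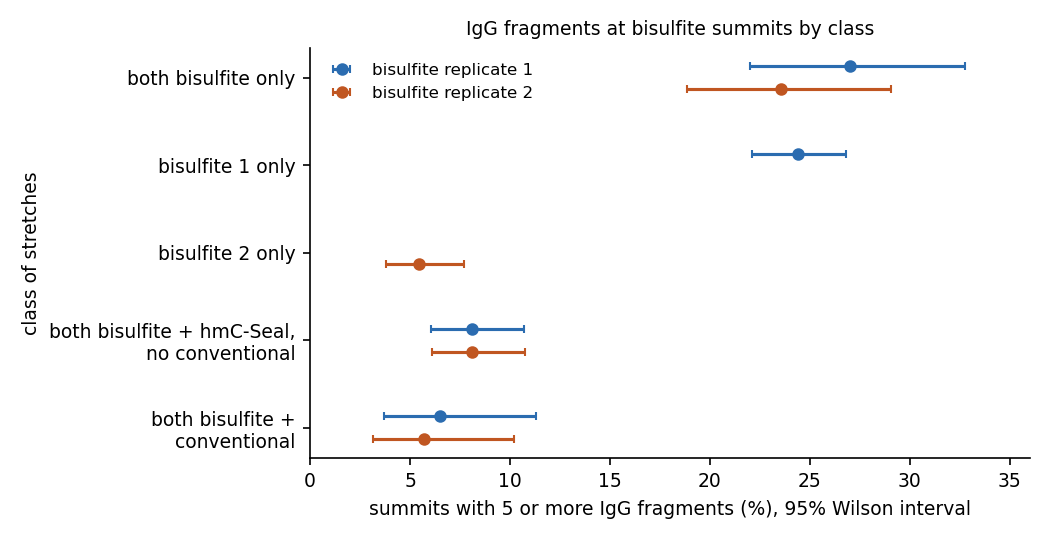
Share of bisulfite summits with 5 or more IgG fragments (x axis, percent, with 95% Wilson intervals) by class of stretches (y axis), in bisulfite replicate 1 (blue) and replicate 2 (orange). Members, at the top, stand at 27.0% and 23.6%, and the stretches shared with hmC-Seal or a conventional library lie between 5.71% and 8.11%.

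Members were also described by this background. In the 73 members with 5 or more IgG fragments in a replicate, the median fold enrichment was 4.66 in replicate 1 and 4.08 in replicate 2, on 54 OCT4 fragments in each, and the median −log10 q was 14.8 and 12. In the 40 members at the genome-wide background in both replicates, the median fold was 7.69 and 7.16 on 15 fragments in each, and the median −log10 q was 7.04 and 5.79. These values depend on how they are made. The fold divides the scaled pileup plus 1 by the background plus 1. It therefore lies further below the plain ratio where the background is low, which narrows the difference in fold between these groups. The fragments were solved together with the background, and a peak over a high background needs more fragments to be called. These differences are no finding about OCT4. In the remaining 145 members with both values the median fold was 6.29 and 5.89 and the median −log10 q 6.10 and 5.90, and 6 members had no assigned value in a replicate.

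**Figure D4:**
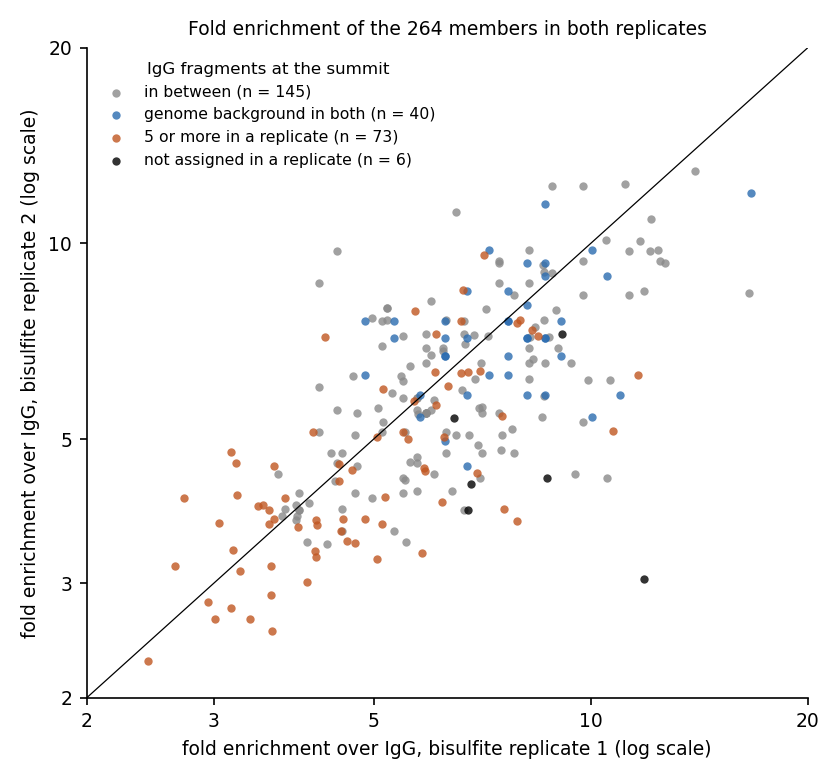
Fold enrichment over IgG of the 264 members in bisulfite replicate 1 (x axis, log scale) and replicate 2 (y axis, log scale), 1 point per member, coloured by the IgG fragments at its summit; the line marks equal values. Orange points, with 5 or more IgG fragments in a replicate (n = 73), hold the lowest folds, and blue points (n = 40) are at the genome-wide background in both.

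The 10 members that ranked highest by −log10 q, each taken at its lower rank of both bisulfite lists, mostly had a high background. All had between 3 and 85 IgG fragments in each replicate, 9 had at least 5 in both and 7 at least 10 in both. Over all members with a value, 27.0% and 23.6% had at least 5 in replicates 1 and 2, and 10.8% and 11.4% at least 10. Members of high background also had the higher median −log10 q, so the ranking itself favours them and these counts are only a description. The first, chrX:70260289-70260389, lay 104746 bp from the nearest start of a gene with a known strand, with a fold enrichment of 8.45 and 7.20 on 119 and 110 fragments over 10 IgG fragments. The second, chr12:18996814-18996915 inside Gm40847 and the pseudogene Gm9249, had the most fragments, 352 and 331 over 85 IgG fragments, and a fold of only 3.17 and 2.75. The third, chr8:90221615-90221705, had 3.22 and 4.59 over 61 and 44 IgG fragments.
Of the 10, 3 lay inside a gene span. Besides the one in Gm40847, these were chr2:157190694-157190795 in Rbl1, which encodes the retinoblastoma-related protein p107, with a fold of 7.03 and 6.37, and chr10:127840377-127840476 in the pseudogene Rdh18-ps, with 5.06 and 5.04. The other members of this group were chr2:134776547-134776640 (3.76 and 4.05), chr1:44966459-44966558 (10.7 and 5.14) and chr19:14182729-14182828 (6.25 and 5.05). The last in rank were chr11:51124914-51125007 (11.6 and 6.28) and chr4:49888382-49888489 (11.8 and 8.45), all as fold enrichment in replicates 1 and 2. At chr1:44966459-44966558 the IgG numbers were 7 and 14, although the summits were 2 bp apart. The part of the background in the folds there was not tested. These numbers are estimates. Where both backgrounds were whole and the summits lay within 2 bp, they were equal at 41 of 53 members (77.4%).

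Most members lay outside genes. The midpoint fell inside a gene span for 99 of 264 members (37.5%, 95% Wilson interval 31.9% to 43.5%), against 43.8% (43.0% to 44.6%) of all stretches. The share was 42.0% (37.9% to 46.2%) for stretches of both bisulfite libraries shared with hmC-Seal only and 47.3% (42.7% to 51.9%) for those of both hmC-Seal libraries only. Members over 50 kb from the start of any gene with a known strand numbered 123 (46.6%, 40.7% to 52.6%), against 31.1% (27.4% to 35.1%) and 33.2% (29.0% to 37.7%) in the same classes and 38.1% of all stretches. Within 5 kb of such a start lay 32 members (12.1%, 8.72% to 16.6%), near the 13.5% of all stretches. These values depend on the genes without a strand, 28.3% of the table. With either of their ends also taken as a start, an upper bound for closeness chosen after seeing the data, 33.3% of members (27.9% to 39.2%) lay over 50 kb from a start, against 21.0% (17.8% to 24.6%) and 22.6% (19% to 26.8%) in the same classes and 26.4% of all stretches. Within 5 kb then lay 18.9% of members (14.7% to 24.1%) and 18.7% of all stretches. Exons and introns were not told apart, since only gene spans were used. In the shares inside gene spans and over 50 kb from a start the members were closest to stretches of a single bisulfite list, of which 35.7% and 36.7% were inside gene spans and 43.9% and 45.9% over 50 kb from a start, in replicates 1 and 2.

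**Figure D5:**
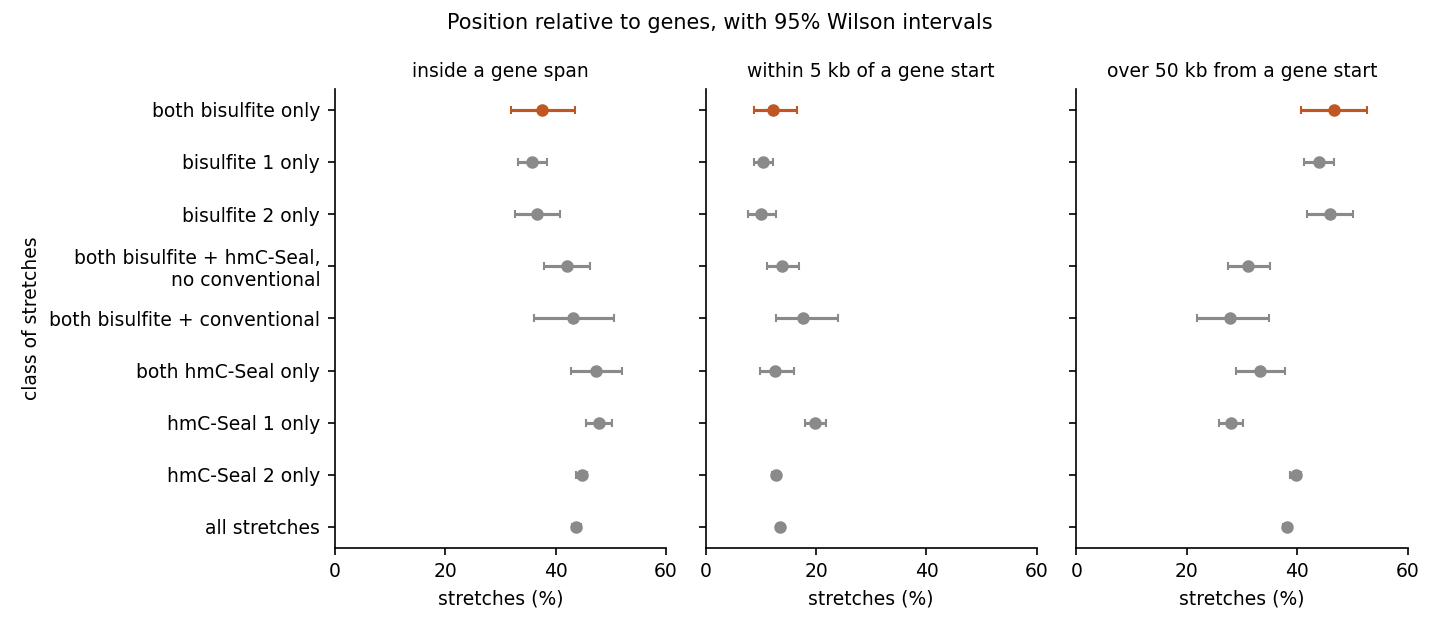
Share of stretches (x axes, percent, with 95% Wilson intervals) inside a gene span (left), within 5 kb of the start of a gene with a known strand (middle) and over 50 kb from one (right), by class of stretches (y axis). Members, in orange, stand at 37.5%, 12.1% and 46.6%, and all stretches, at the bottom, at 43.8%, 13.5% and 38.1%.

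Stretches of a single library were not used to choose the members and allow a comparison over libraries. The share inside a gene span was 36.2% ± 0.677 (SD, n = 2 libraries) for bisulfite and 46.3% ± 2.22 (SD, n = 2) for hmC-Seal, a difference of −10.1 percentage points that was larger than the spread between replicates (two-sided exact permutation test over libraries, p = 0.33, also 0.33 after Benjamini-Hochberg adjustment over 2 comparisons). With 2 libraries against 2 this is the smallest p possible, and the test cannot pass a threshold. Within 5 kb of a gene start lay 10.2% ± 0.268 (SD, n = 2) of the bisulfite and 16.3% ± 5.04 (SD, n = 2) of the hmC-Seal stretches (the same exact permutation test, p = 0.33, adjusted p = 0.33). This difference of −6.13 points rests largely on hmC-Seal replicate 1, without which it was −2.57, and with hmC-Seal replicate 1 alone it was −9.69.

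The genes that held members were diverse. A member fell in the span of 105 genes, 82 of them protein-coding, and no gene held more than 1 member. The midpoint lay in a protein-coding span for 80 members, in a long non-coding RNA gene for 19 and in a pseudogene for 3, of which 1 was transcribed. These are 30.3% of members in protein-coding spans and 7.20% in long non-coding RNA genes, against 35.7% and 8.38% of all stretches. The coding spans had a median length of 139 kb, near the 133 kb for all stretches in coding spans. The genes named next were picked after their values were seen and stand for no group. They include Ror1 and Alk, receptor tyrosine kinase genes, and Hgf, a growth factor gene. Their fold enrichment was 4.04 and 3.02 in Ror1, 3.94 and 4.13 in Alk, and 3.73 and 3.81 in Hgf, all in the lower part of the range. The IgG background in each replicate was 9 fragments in Ror1, 2 in Alk and 3 in Hgf. Higher folds stood in Lrp2, which encodes the endocytic receptor megalin, at 12.5 and 9.39, and in Btrc, which encodes a ubiquitin ligase subunit that acts on beta-catenin, at 12.7 and 9.34.
In Chrm3, a muscarinic acetylcholine receptor gene, the fold was 11.3 and 9.75, and in Gria4, a glutamate receptor subunit gene, 7.01 and 5.58. Foxp1, a forkhead transcription factor gene, held a member 75301 bp from a start at 4.75 and 5.48 on 11 and 14 fragments. The summits of both replicates lay 65 bp apart there. In Sfmbt1, which encodes an MBT-domain protein that binds histones, the fold was 5.69 and 5.72, and in Psg21, a pregnancy-specific glycoprotein gene, 6.65 and 8.47, over 8 and 8 and over 6 and 5 IgG fragments. Counts by gene family were too low to compare. There was 1 member within 5 kb of an olfactory receptor (Olfr) gene, 1 of a Vmn2r gene and 1 of a Zfp gene, and there was none near a Vmn1r, Mir or Snor gene. The shares of all stretches near these families were 0.526%, 0.327%, 0.674%, 0.0770%, 0.308% and 0.0128%, each under 1%. The member in Psg21 is 1 of only 5 stretches near a Psg gene, a family looked at after its value was seen.

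None of the genes of the 6 lists found in the gene table had a member within 5 kb. Those found were 46 genes of pluripotency and OCT4 partners, 60 imprinted genes, 38 germline genes, 28 genes of DNA methylation and TET, 42 signalling genes and 49 lineage regulators, while 1 imprinted, 1 germline and 1 DNA methylation gene of the lists were not matched. Of all 49554 genes in the table, 0.331% had a member within 5 kb, and of protein-coding genes 0.490%, so a count of 0 in lists of this size says little about the members. Of all listed genes, Tsix, an antisense RNA gene of the X-inactivation centre in the imprinted list, lay closest to a member, at 89549 bp. In other lists the nearest members lay 161536 bp from Jam2 in the pluripotency list, 189641 bp from Tdg, a DNA glycosylase gene of active demethylation, 142912 bp from Hand1, a heart and trophoblast regulator gene, and 198111 bp from Tex19.1 in the germline list. In the signalling list the nearest lay 226946 bp from Smad4. Stretches of both bisulfite libraries were present at some listed genes, but shared with another preparation. There were 6 of 46 pluripotency genes with one within 5 kb, beside 0.973% of all genes and 1.46% of protein-coding genes, and at all 6 hmC-Seal replicate 1 had an entry too. In other lists it was 1 of 60 imprinted genes, 2 of 28 genes of DNA methylation and TET, and 2 of 42 signalling genes. No gene of the germline list or of the list of lineage regulators had one. Dppa3, given below, was counted in the pluripotency list. At Sox2, the partner of OCT4 on DNA, chr3:34653989-34654120 was called in both hmC-Seal libraries as well, with bisulfite folds of 8.16 and 8.46. At Dppa3, a germline and early embryo gene, chr6:122624610-122624740 had bisulfite folds of 13.2 and 11.5, and at Etv5, an ETS factor gene, chr16:22439738-22439956 had 14.8 and 18.5 and was also called in conventional replicate 2. Tfcp2l1 and Mybl2, both transcription factor genes, had folds of 5.80 and 8.03, and 10.9 and 7.64. The lowest folds of the 6 were at Klf2, a Krüppel-like factor gene, at 3.92 and 4.47. At Tet2, chr3:133524641-133525114 was shared with both hmC-Seal libraries, at 7.07 and 8.68, and at Lifr, the receptor gene for leukaemia inhibitory factor, chr15:7115806-7115940 was too, at 8.64 and 8.03.

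The members were spread over all chromosomes analysed. Chromosome 1 held 26 (9.85%, 95% Wilson interval 6.81% to 14%), against 7.40% of all stretches, chromosome 12 held 17 (6.44%, 4.06% to 10.1%), against 4.15%, and X held 17, against 5.43%. Chromosome 18 held 4 (1.52%, 0.591% to 3.83%), against 3.40%. In each of these 4 cases the share of all stretches lay within the interval of the members. Members rarely lay together. Another member was within 100 kb of 6 members, in 3 pairs. The closest pair, chr13:87741088-87741192 and chr13:87745236-87745355, was 4043 bp apart, and the others were 26377 and 84669 bp apart.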

How the data were processed

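The authors trimmed reads with fastp 0.19.4, aligned conventional reads with Bowtie 2 2.4.1 and the others with Bismark 0.22.3 to GRCm38, kept short fragments (tool versions from the submitters' processing notes), and called peaks in each library against IgG with MACS 2, without pooling or spike-in calibration. Of the bisulfite libraries they kept methylated reads only. The deposited lists give, at each summit, −log10 p, −log10 q and the fold enrichment. The fold is a ratio of the scaled pileup to the background of IgG nearby, with a pseudocount added to both. The deposited score is a rounded −log10 q and was not used further. Values are not normalized between libraries, and the lists give no read totals.

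Members and lists were chosen with earlier results of these data known. Entries were merged in Python 3.11.15 (numpy 2.4.6, pandas 2.3.3, scipy 1.17.1, matplotlib 3.10.9), and the summit of highest −log10 q stood for a stretch in each library. Gene spans came from RefSeq (GRCm38.p6) and strands of genes without a promoter window from GENCODE by symbol, and genes without a strand (28.3%) gave no start. Fragments and IgG background were solved from the MACS 2 formula, devised after the data were seen and tested on simulated data, with whole OCT4 fragments taken within 0.02 and whole IgG fragments within 0.001. Named members were the 10 of best worst rank, those within 1 kb of a coding start, those near listed genes, the widest and those nearest another list. The methods name conventional and bisulfite libraries of a number after the same pool, whereas hmC-Seal shares the number only. Alternatives covered overlap, merging, q, bins, list length, gene types and each library left out.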

Additional observations from a re-analysis of the deposited data

Results flagged for a closer look

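Outside the chromosomes analysed, 4 stretches had an entry of both bisulfite libraries and of no other, 3 on Y and 1 on an unplaced contig of chromosome 1. They drew attention because they lie in sequence that the count of 264 leaves out, and no explanation was weighed.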

How the results depend on the processing

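The number of members was within 1.5 times of 264 in 16 alternatives, at 178 to 323, among them other overlap and merging rules, bins, sequences and lists of equal length. It was 147 with −log10 q of at least 5 asked of the bisulfite lists only, and 40 for members at the genome-wide IgG background in both replicates, an alternative chosen after seeing the data. Leaving out each library gave 264 to 1556, the highest without bisulfite replicate 2, where a single list then made the members. The share inside a gene span stayed within the interval of the main value in 10 alternatives and was 30.3% with protein-coding genes only and 25% at the genome-wide IgG background. The share within 5 kb of a start was 8.33% with protein-coding genes only, and 18.9% with either end of a gene without a strand as a start, also chosen after seeing the data. Without the 73 members of high IgG background, also chosen after seeing the data, 191 members remained, of which 38.7% were inside a gene span.

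Median folds were 6.95 and 6.83 in replicates 1 and 2 with −log10 q of at least 5 in both lists, and 7.69 and 7.16 at the genome-wide IgG background. Leaving out each other library gave 6.24 to 6.68 in replicate 1 and 5.72 to 6.33 in replicate 2. With same-numbered libraries paired (replicate block), the differences between bisulfite and hmC-Seal were again −10.1 and −6.13 points (exact sign-flip permutation, p = 0.5, the smallest that 2 pairs allow). The differences kept their sign in all 7 and 8 alternatives, at −11.9 to −8.56 and −9.69 to −2.57. No alternative lets these tests pass a threshold. The few fragments behind most summits limit the precision, and absence from a list does not show absence of signal.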

Other observations

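Where bisulfite replicate 1 and hmC-Seal replicate 1 had a summit at the same base and both backgrounds were whole numbers of IgG fragments (within 0.001), the IgG number was equal in 15 of 19 cases, and the same held for bisulfite replicate 2 and hmC-Seal replicate 1. The hmC-Seal peaks were called with IgG controls, but which IgG library served is not given in the sources used here.

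In hmC-Seal replicate 1, 10.4% of the stretches of both hmC-Seal libraries only had 5 or more IgG fragments (95% Wilson interval 7.88% to 13.6%), against 3.16% (2.43% to 4.10%) of the stretches of hmC-Seal replicate 1 alone and 4.46% of all stretches in that library. In hmC-Seal replicate 2 the solved background is not in whole IgG fragments (1 OCT4 fragment counted as 1, over a genome-wide background of 0.156), so neither measure is given for that library.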
